A study of Sus scrofa with 4 samples.

Results

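The semaphorin, Slit and netrin genes, which encode ligands that steer growing axons and moving cells, and the genes of their plexin, neuropilin, Robo, UNC5, DCC and neogenin receptors were followed in sorted cells of the pig epidermis. Members were chosen by gene symbol. The symbols of 48 of the 29837 named genes matched, 27 for ligands and 21 for receptors, and all 48 are accounted for below. RNA was sequenced from cells of 2 juvenile pigs, 88R and 95R, with 1 LGR5-high (GFP-hi) and 1 LGR5-negative (GFP-neg) library from each pig. All 4 libraries came from pigs of a line carrying H2B-GFP knocked into exon 1 of 1 LGR5 allele, a line begun by nuclear transfer from clonal fibroblast lines, so that both populations of a pig share the edited allele and differ in the GFP by which they were sorted. Whether 88R and 95R were founders or their offspring is not given in the sources used here. The sort followed removal of the dermis with Dispase and a trypsin digest of hair and epidermis. Live cells were gated with propidium iodide, and cells of low GFP were sorted apart and are in neither population. The LGR5-negative population is therefore a mixture of cell types, and GFP stays in the nucleus for a time after the LGR5 promoter falls silent.

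Semaphorins are secreted or membrane-bound proteins whose shared sema domain binds plexins. Class 3 members are secreted, and most of them need a neuropilin as co-receptor, whereas classes 4 to 7 are held at the membrane and bind plexins without one. Slits are large secreted proteins that bind Robo receptors, and netrins are laminin-like secreted proteins that bind DCC, neogenin and the UNC5 receptors. Outside the nervous system these families act on cell adhesion, on the actin cytoskeleton and on the branching of vessels and epithelia, and skin keratinocytes are known to make semaphorins that keep nerve fibres at a distance from, or draw them towards, the epidermis.

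The libraries held between 30696803 and 32463362 counts on named genes, so that 3 counts, the floor used here, were worth between 0.0872 and 0.105 CPM (a read count divided by the TMM-scaled library total and multiplied by 1000000). For LGR5 itself the LGR5-high cells gave 4551 counts in pig 88R and 6224 in pig 95R, and the LGR5-negative cells 36 and 109. Throughout, the values of pig 88R are given before those of pig 95R. KRT5 made up most of the basal keratinocyte list (summed level of 6 genes between 29629 and 32882 CPM in LGR5-high and between 34607 and 37007 CPM in LGR5-negative) and was not called, while ITGA6 (log2 fold change -0.94), COL17A1 (-0.47) and ITGB4 (-0.38) were lower in LGR5-high. The suprabasal list of 8 genes was between 6057 and 6646 CPM in LGR5-high and between 57446 and 66533 CPM in LGR5-negative, and the outer root sheath and bulge list of 9 genes was between 3494 and 3665 CPM against 234 and 311 CPM. Lists of other cell types differed between the populations too. The leukocyte and Langerhans list of 11 genes was between 9.35 and 17 CPM in LGR5-high, where CD3E, CD3D, CD2 and IL7R were at 0 in both libraries, and between 154 and 175 CPM in LGR5-negative. The endothelial list of 10 genes was between 15.7 and 18.4 CPM against 25.6 and 27.3 CPM, with 4 genes lower and 2 higher of 9 tested, and the melanocyte list of 10 genes was 64.8 and 64.3 CPM against 87.3 and 267 CPM. The Merkel cell list of 6 genes was 19.8 and 15.9 CPM against 0.842 and 1.75 CPM. It was made up mostly of PIEZO2 (log2 fold change 4.08) and CHGA (5.11), the 2 genes tested, both called higher. KRT20 had 10 and 8 counts against 8 and 12, and ISL1 had 0 and 7 against 3 and 7. ATOH1 had 3 and 21 counts against 0 and 2, and SOX2 had 3 and 5 against 0 and 0. Within 3 further lists the genes went different ways, so that the sums say little. In the smooth muscle list of 8 genes (775 and 676 against 567 and 662 CPM) 5 of 7 tested genes were higher, among them TAGLN (log2 fold change 4.96), CNN1 (3.70) and ACTA2 (2.08), and the abundant NOTCH3 was lower (-0.67). In the fibroblast list of 10 genes (238 and 454 against 394 and 288 CPM) 6 of 8 tested genes were lower, among them VIM (-3.65) and COL3A1 (-3.09), and COL1A1 was higher (1.85). The nerve and Schwann list of 10 genes (219 and 191 against 344 and 337 CPM) was made up mostly of ERBB3, which was lower (-0.81) as was MBP (-2.24), whereas NCAM1 (5.77) and S100B (2.81) were higher and CDH19 and SCN7A were at 0 in every library. The part of these cells in the results below was not tested.

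**Figure D1:**
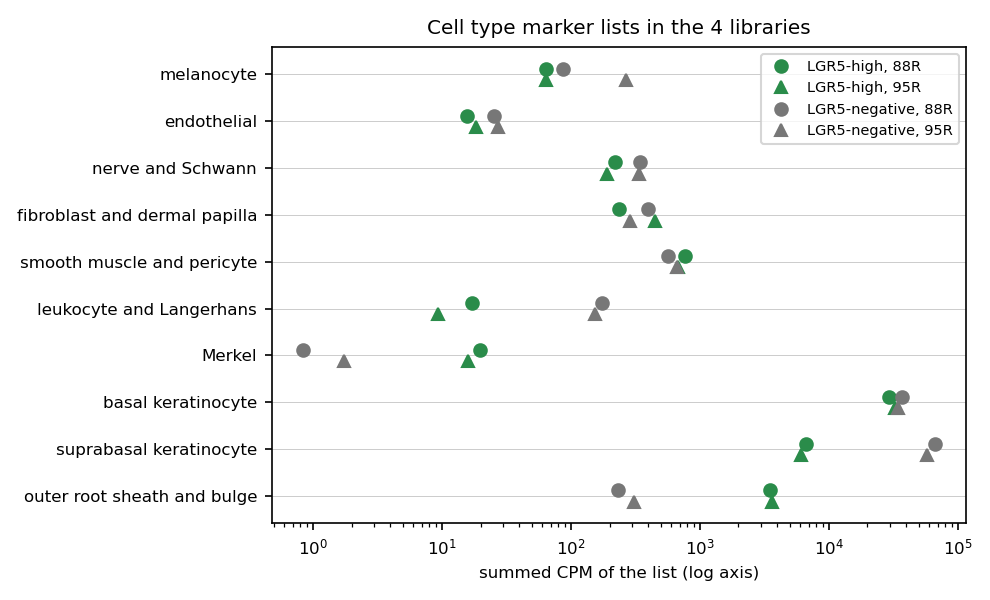
Summed CPM (log axis) of each cell type marker list in the 4 libraries, green for LGR5-high and grey for LGR5-negative, circles for pig 88R and triangles for pig 95R. The outer root sheath and bulge list lies between 3494 and 3665 CPM in LGR5-high and the leukocyte list between 154 and 175 CPM in LGR5-negative, and the basal keratinocyte list, mostly KRT5, between 29629 and 37007 CPM over all 4 libraries.

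Among ligand and receptor genes alike, more were higher in LGR5-high than lower. Of the 48 members, 44 passed the filter on low counts, 26 ligands and 18 receptors, and were tested with edgeR's quasi-likelihood test among 15980 genes. Among the ligands 16 were higher and 6 lower in LGR5-high (adjusted p-value under 0.05), and among the receptors 8 were higher and 4 lower. For the 44 tested members these were 54.5% higher and 22.7% lower, beside 22.7% higher and 22.0% lower among all tested genes. A change of at least 2-fold as well was met by 14 higher and 3 lower ligands and by 7 higher and 3 lower receptors, where 14.6% and 9.42% of all tested genes met it. The median log2 fold change was 1.52 for the ligands and 0.23 for the receptors, beside 0.02 for all tested genes. Since 5 members passed the filter through LGR5-high alone (SEMA3A, SEMA5B, SLIT1, NTN3 and UNC5A) and 3 through LGR5-negative alone (SEMA3G, PLXNC1 and ROBO4), these counts and medians describe the members and are no test of them. With at least 10 counts required in every library, 36 members were tested. Of these, 12 ligands were higher and 6 lower, and 7 receptors were higher and 3 lower. The share of all genes called under that filter is not given here, so these counts cannot be set beside it. In bulk RNA of a sorted population, fewer cells of a type and less RNA per cell cannot be told apart.

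The scaling between libraries moved all genes alike. Over all tested genes the median log2 fold change stood at 0.02 with TMM, at 0.11 with upper quartile scaling and at 0.24 with library size only. The changes given here are those with TMM unless another setting is named, and no median was subtracted from them. With library size only, 12 receptors and 18 ligands were higher and 4 and 5 were lower, beside 34.2% higher and 14.6% lower among all tested genes under that scaling. The members that changed their call with library size only were SEMA3D, SEMA4G, PLXNB1, PLXNB2, UNC5B and NEO1, which were then called higher, and SEMA4D, which was no longer called lower (log2 fold change -0.34, adjusted p = 0.103). SEMA3D and UNC5B were also called higher with upper quartile scaling (0.59 and 0.40, adjusted p = 0.0382 and 0.0406).

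**Figure D2:**
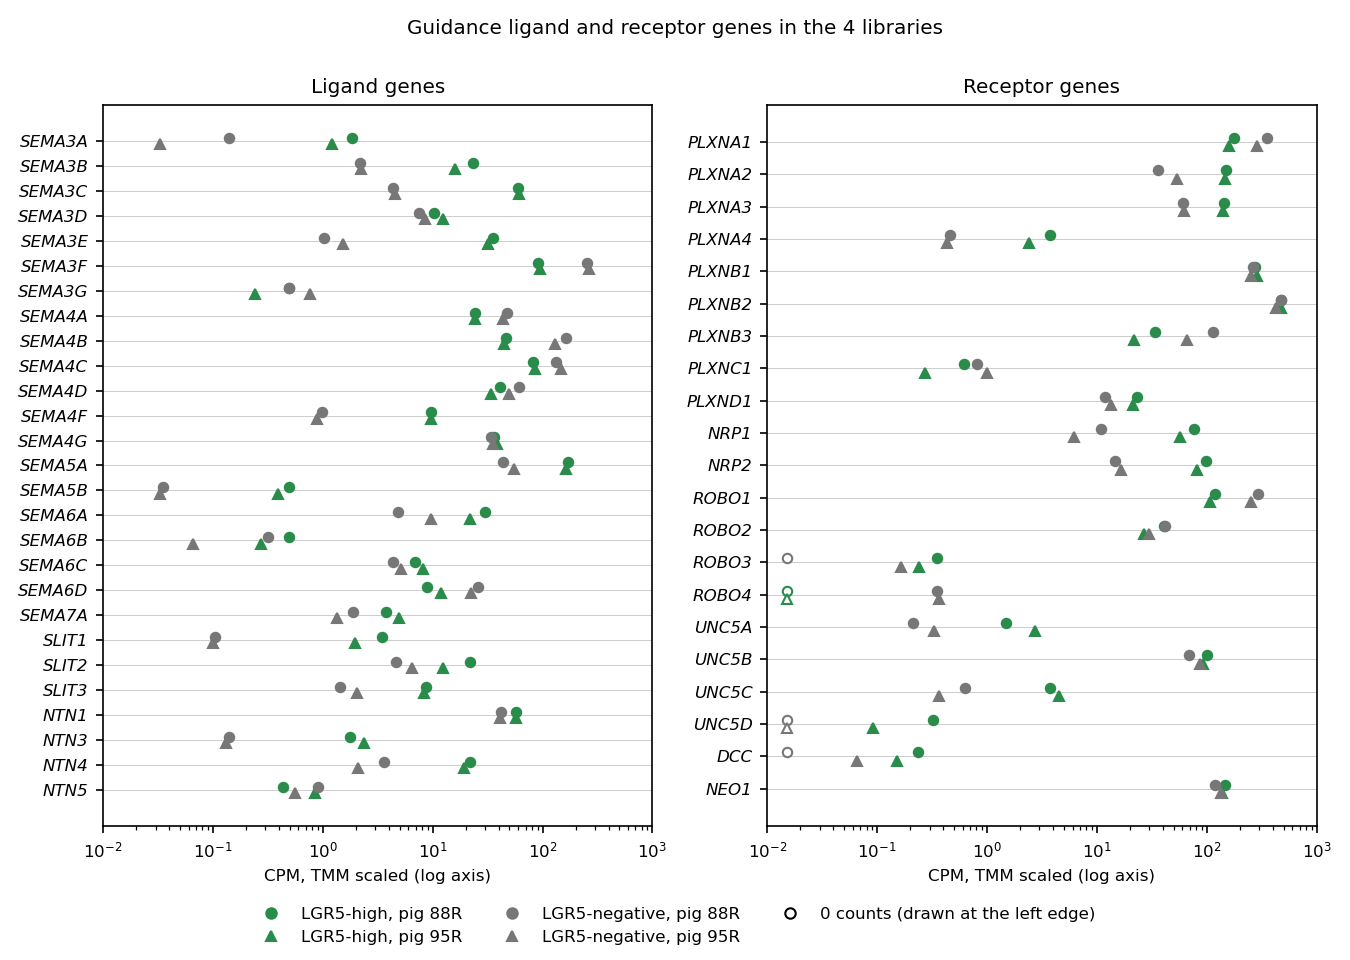
Level of all 48 members in each library as TMM-scaled CPM on a log axis, ligands on the left and receptors on the right; green is LGR5-high, grey is LGR5-negative, circles are pig 88R, triangles are pig 95R, and open symbols at the left edge are 0 counts. The green symbols of SEMA3E lie at 35.3 and 31.6 CPM and its grey symbols at 1.02 and 1.52 CPM, whereas those of PLXNB1 and PLXNB2 lie together.

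The class 3 semaphorins, the secreted ligands that work through neuropilins, held 4 higher genes and 1 lower gene among 7. SEMA3E, which is known to signal through plexin D1 without a neuropilin, stood at 35.3 and 31.6 CPM in LGR5-high but at 1.02 and 1.52 CPM in LGR5-negative (log2 fold change 4.71, standard error 0.215, adjusted p = 8.80e-05). SEMA3C, a ligand of both neuropilins, had 60.4 and 61.6 CPM against 4.35 and 4.5 CPM, with a log2 fold change of 3.78 (standard error 0.11, adjusted p = 4.09e-05). In both genes the populations lay far apart and the pigs close together. SEMA3B, known as a candidate tumour suppressor, had 23.4 and 16 CPM against 2.17 and 2.22 CPM (log2 fold change 3.16, standard error 0.239, adjusted p = 3.43e-04). SEMA3A, the founding repellent of sensory axons and a ligand of neuropilin-1, was detected at a far lower level, with 64 and 40 counts in LGR5-high and 4 and 1 counts in LGR5-negative. The ratio of its summed counts was 18.1 with a 95% interval for counting error of 7.52 to 57 (log2 fold change 4.11, adjusted p = 0.00398). Without the LGR5-negative library of pig 88R the log2 fold change of SEMA3A was 5.38, and without that of pig 95R it was 3.41.

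SEMA3F was the class 3 gene that was lower in LGR5-high. In LGR5-high this ligand of neuropilin-2 stood at 91.7 and 94.6 CPM, and in LGR5-negative at 252 and 267 CPM, with no overlap (log2 fold change -1.48, standard error 0.0796, adjusted p = 1.31e-04). SEMA3D had 10.3 and 12.3 CPM against 7.54 and 8.53 CPM. Its libraries did not overlap either, and it was not called (log2 fold change 0.50, adjusted p = 0.0608). With the pig as a replicate block, that is with each pig's own level fitted, SEMA3D was called higher (0.49, adjusted p = 0.0132). SEMA3G, known mainly from vessels, was near the floor in all libraries, with 17 and 8 counts in LGR5-high and 14 and 23 in LGR5-negative, and was not called.

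Both neuropilin genes, which encode co-receptors of class 3 semaphorins and of VEGF, were higher in LGR5-high. NRP1 had 76.7 and 56.8 CPM against 10.8 and 6.15 CPM (log2 fold change 2.98, standard error 0.292, adjusted p = 8.08e-04). NRP2 had 98.5 and 81.4 CPM against 14.7 and 16.4 CPM (log2 fold change 2.53, standard error 0.134, adjusted p = 1.24e-04). The LGR5-high libraries of both genes were above both LGR5-negative libraries, and the log2 fold changes of NRP1 within the pigs were 2.83 and 3.19. Endothelial cells also make NRP1 and NRP2. Of 9 tested endothelial markers 4 were lower and 2 higher in LGR5-high, and the part of these cells in NRP1 and NRP2 was not tested.

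The class 4 semaphorins, transmembrane ligands many of which bind B-type plexins, went the other way, with 4 of 6 genes lower and 1 higher. SEMA4B stood at 46.3 and 44.4 CPM in LGR5-high against 162 and 131 CPM in the other population (log2 fold change -1.69, standard error 0.121, adjusted p = 2.85e-04). SEMA4A, known from immune cells and the retina, had 24.5 and 24.2 CPM against 47.2 and 43.4 CPM, and SEMA4C, a plexin B2 ligand, had 82.5 and 85.4 CPM against 133 and 146 CPM. The LGR5-negative libraries of these 3 genes were above the LGR5-high libraries in both pigs, and the log2 fold changes of SEMA4A and SEMA4C were -0.89 and -0.73 (adjusted p = 0.00127 and 0.00138). SEMA4D, the plexin B1 ligand first named on T cells, had 40.6 and 34.2 CPM against 61.3 and 49.1 CPM. Its log2 fold change of -0.56 (adjusted p = 0.0258) was not called without the LGR5-negative library of pig 88R (-0.40, adjusted p = 0.0823) or without the LGR5-high library of pig 95R (-0.44, adjusted p = 0.135). The leukocyte list and the far more abundant suprabasal keratinocyte list were lower in LGR5-high too. The part of either cell type in these 4 genes was not tested.

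SEMA4F stood apart from the rest of its class. The pigs were nearly alike for SEMA4F, at 9.65 and 9.68 CPM in LGR5-high against 0.982 and 0.893 CPM in the other population (log2 fold change 3.36, standard error 0.213, adjusted p = 2.01e-04). SEMA4G had 35.9 and 38.2 CPM against 34.1 and 35.3 CPM and was not called (log2 fold change 0.09, adjusted p = 0.458).

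**Figure D3:**
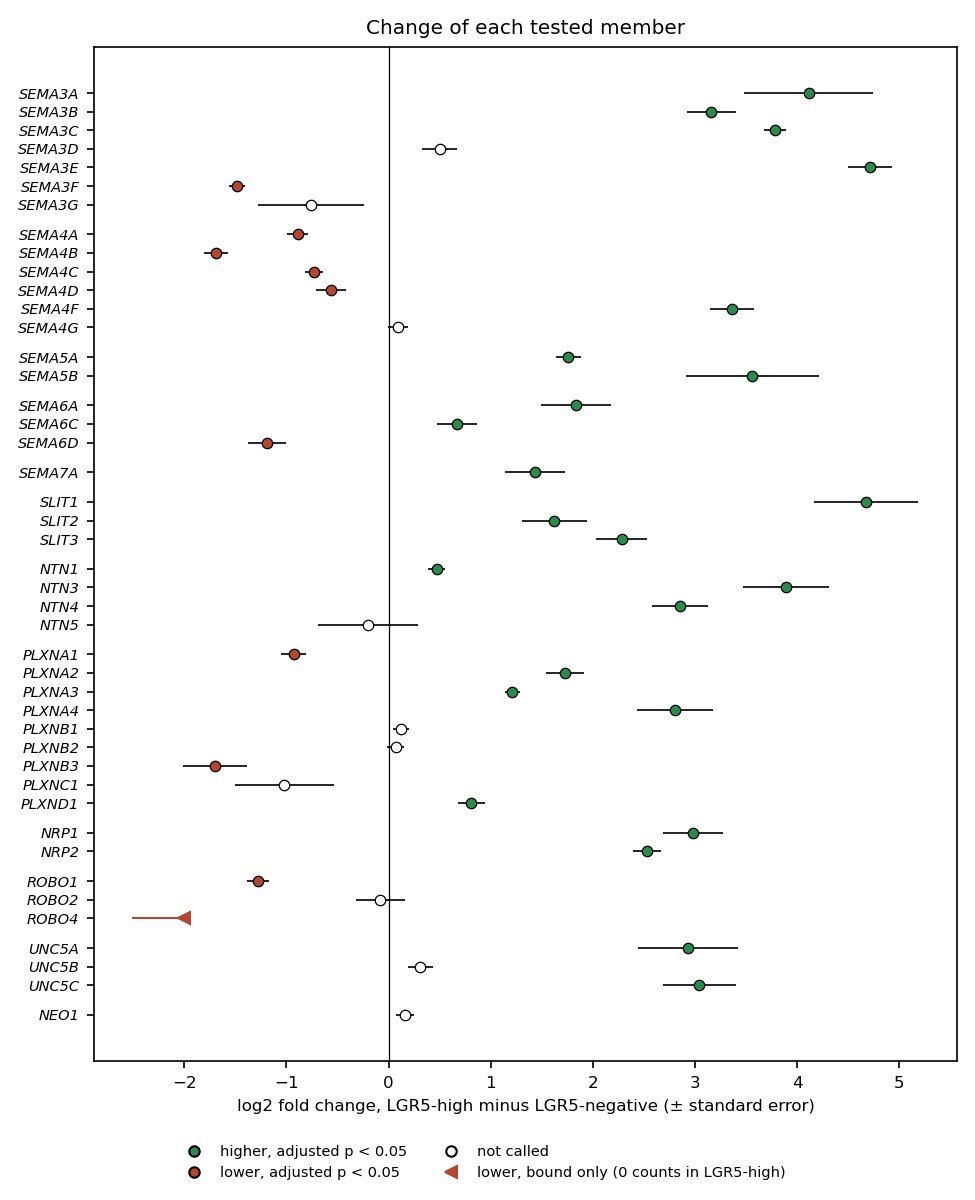
Log2 fold change of LGR5-high minus LGR5-negative for the 44 tested members, grouped by family, with bars of 1 standard error; green is called higher, red is called lower, white is not called, and the red triangle of ROBO4 is a bound against the floor, since both LGR5-high libraries held 0 counts. SEMA3E reaches 4.71 and SEMA4B lies at -1.69; SEMA4A to SEMA4D lie left of 0 and SEMA4F lies at 3.36.

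Classes 5 to 7 held 5 higher genes and 1 lower gene among 7 members. SEMA5A, a transmembrane ligand with thrombospondin repeats, stood at 170 and 164 CPM in LGR5-high against 43.5 and 54.8 CPM (log2 fold change 1.76, standard error 0.125, adjusted p = 2.82e-04). Its paralog SEMA5B was near the floor, with 17 and 13 counts against 1 and 1, a count ratio of 13.1 (95% interval for counting error 3.32 to 113). The call of SEMA5B (log2 fold change 3.56, adjusted p = 0.00747) was lost without the LGR5-high library of pig 88R (adjusted p = 0.0674) and with DESeq2 and the replicate block (adjusted p = 0.11). SEMA6A, which also acts as a receptor, had 30.1 and 21.8 CPM against 4.84 and 9.69 CPM (log2 fold change 1.83, standard error 0.343, adjusted p = 0.00817). The difference was wider in pig 88R, with a log2 fold change of 2.62, than in pig 95R, with 1.17, which was not tested.

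SEMA6D, known from heart and neural development, was lower in LGR5-high, with 8.95 and 12 CPM against 25.7 and 22.2 CPM (log2 fold change -1.19, standard error 0.183, adjusted p = 0.00409). SEMA6C had 6.95 and 8.2 CPM against 4.38 and 5.16 CPM and was called higher by a small margin (log2 fold change 0.67, adjusted p = 0.0399). Leaving out any of the 4 libraries took the adjusted p of SEMA6C to between 0.0526 and 0.194. SEMA7A, the class held by a lipid anchor, had 3.78 and 4.96 CPM against 1.89 and 1.36 CPM (log2 fold change 1.43, standard error 0.295, adjusted p = 0.0116), and without the LGR5-high library of pig 95R it was not called (1.22, adjusted p = 0.0818). SEMA6B had 17 and 9 counts against 9 and 2 and did not pass the filter. When all genes with at least 1 count were tested, its log2 fold change was 1.00 (adjusted p = 0.404).

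The plexins, the signalling receptors of semaphorins, were split, with 4 higher, 2 lower and 3 not called among 9. PLXNA2 stood at 151 and 147 CPM in LGR5-high against 36.2 and 53.7 CPM (log2 fold change 1.73, standard error 0.186, adjusted p = 0.00112). PLXNA3 had 143 and 141 CPM against 60.9 and 61.7 CPM (log2 fold change 1.21, standard error 0.0743, adjusted p = 1.85e-04). The pigs were nearly alike within each population for PLXNA3, so that a difference of this size stood out from a spread of 1.02 CPM (SD, n = 2) in LGR5-high and 0.587 CPM (SD, n = 2) in LGR5-negative. PLXNA4 was at a low level, with 3.78 and 2.42 CPM against 0.456 and 0.43 CPM (log2 fold change 2.80, standard error 0.373, adjusted p = 0.00244). PLXND1, the receptor of SEMA3E, had 23.1 and 21.2 CPM against 11.8 and 13.4 CPM (log2 fold change 0.81, standard error 0.133, adjusted p = 0.00511).

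PLXNA1 and PLXNB3 were lower in LGR5-high. PLXNA1 had 178 and 161 CPM against 354 and 289 CPM (log2 fold change -0.93, standard error 0.122, adjusted p = 0.00232), which set it apart from the other A-type plexins. PLXNB3, a receptor of SEMA5A, had 33.6 and 21.8 CPM against 113 and 66.4 CPM (log2 fold change -1.70, standard error 0.311, adjusted p = 0.00758). Each population had more PLXNB3 in pig 88R than in pig 95R, and the log2 fold changes within the pigs were close, -1.75 and -1.60. PLXNB1 (272 and 284 against 261 and 251 CPM) and PLXNB2 (470 and 474 against 470 and 431 CPM) were not called with TMM (adjusted p = 0.257 and 0.557). With library size only, both were called higher, with log2 fold changes of 0.34 and 0.29. PLXNC1, the receptor of SEMA7A, had 21 and 9 counts against 23 and 30 and was not called (adjusted p = 0.141). Melanocytes are known to make PLXNC1, and the melanocyte list, like PLXNC1, was at its highest in the LGR5-negative library of pig 95R; its part was not tested.

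All 3 Slit genes were called higher in LGR5-high, and of 3 tested Robo genes 2 were lower and none was higher. Among all tested genes 22.7% were higher and 22.0% lower. SLIT1 passed the filter through LGR5-high alone and ROBO4 through LGR5-negative alone, so the filter favoured their directions. SLIT2 stood at 21.9 and 12.4 CPM in LGR5-high against 4.63 and 6.52 CPM (log2 fold change 1.62, standard error 0.319, adjusted p = 0.00979). SLIT3 had 8.66 and 8.38 CPM against 1.44 and 2.05 CPM (log2 fold change 2.28, standard error 0.246, adjusted p = 0.00112). The populations did not overlap for either gene, and the change of SLIT2 was wider in pig 88R (2.22) than in pig 95R (0.93). SLIT1, known chiefly from the brain, had 118 and 65 counts in LGR5-high and 3 counts in each LGR5-negative library. The ratio of the summed counts of SLIT1 was 26.6 (95% interval for counting error 12 to 73.4), with a log2 fold change of 4.67 and an adjusted p of 0.00117.

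ROBO1, the Slit receptor of epithelia and axons, stood at 119 and 106 CPM in LGR5-high against 294 and 254 CPM (log2 fold change -1.28, standard error 0.109, adjusted p = 5.05e-04). ROBO2 had 40.6 and 27 CPM against 41.6 and 29.8 CPM, where the pigs differed more than the populations, and was not called (adjusted p = 0.81). In the gene order of RefSeq, ROBO1 and ROBO2 are neighbours with no protein-coding gene between them. ROBO4, the Robo of endothelial cells, was at 0 counts in both LGR5-high libraries and at 10 and 11 counts in LGR5-negative. Against a floor of 3 counts per library it was at least 4.01-fold lower (adjusted p = 0.0088), and of 9 tested endothelial markers 4 were lower with it (CDH5, VWF, TEK and CLDN5), 2 were higher (TIE1 and EGFL7, log2 fold changes 0.99 and 1.06) and 3 were not called (PECAM1, ERG and ESAM). ROBO3 had 12 and 8 counts against 0 and 5 and was not tested. In the fit of all genes with at least 1 count its adjusted p was 0.267.

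Of the 4 netrin genes 3 were higher in LGR5-high and none was called lower. NTN4, a netrin that binds laminins of the basement membrane, had 21.8 and 19.2 CPM against 3.61 and 2.08 CPM (log2 fold change 2.85, standard error 0.272, adjusted p = 7.41e-04). NTN1, the netrin that draws commissural axons, differed less, with 56.8 and 57.8 CPM against 41.8 and 40.7 CPM (log2 fold change 0.47, standard error 0.0855, adjusted p = 0.00715). The small difference of NTN1 still exceeded the spread between the pigs, 0.711 CPM (SD, n = 2) in LGR5-high and 0.771 CPM (SD, n = 2) in LGR5-negative. NTN3 had 61 and 79 counts against 4 and 4, a count ratio of 15.3 (95% interval for counting error 7.53 to 36), with a log2 fold change of 3.89 and an adjusted p of 0.00113. NTN5 was near the floor with 15 and 28 counts against 26 and 17, moved in opposite directions in the pigs and was not called.

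Among the netrin receptors, UNC5A and UNC5C were higher in LGR5-high and UNC5B and NEO1 were not called. UNC5C stood at 3.75 and 4.48 CPM in LGR5-high against 0.631 and 0.364 CPM (log2 fold change 3.04, standard error 0.357, adjusted p = 0.0015). UNC5A had 51 and 90 counts against 6 and 10 (log2 fold change 2.93, standard error 0.489, adjusted p = 0.00548). UNC5 proteins turn the response to netrin into repulsion and are known as dependence receptors, which signal cell death when netrin is missing. UNC5B had 100 and 92.2 CPM against 69.3 and 86.3 CPM and was not called with TMM in the fit on population alone (log2 fold change 0.31, adjusted p = 0.0939). With the replicate block UNC5B was called higher (0.31, adjusted p = 0.0171), as it was without the LGR5-negative library of pig 95R (0.47, adjusted p = 0.0297). NEO1, which encodes neogenin, a receptor of netrins and of RGM proteins, had 146 and 139 CPM against 120 and 135 CPM (log2 fold change 0.16, adjusted p = 0.197). DCC, the classical netrin receptor of axons, was barely detected, with 8 and 5 counts in LGR5-high and 0 and 2 in LGR5-negative, and UNC5D had 11 and 3 counts against 0 and 0. Neither passed the filter, and in the fit of all genes with at least 1 count their adjusted p-values were 0.185 and 0.0663.

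Known ligands and receptors can be set side by side, as levels of RNA and with no measure of binding. SEMA3E and its receptor gene PLXND1 were both higher in LGR5-high, with log2 fold changes of 4.71 and 0.81, and SEMA3A and SEMA3C were higher beside NRP1 and NRP2. SEMA6A (1.83) was higher beside PLXNA2 and PLXNA4, its known receptors (1.73 and 2.80), and SEMA6D and its receptor gene PLXNA1 were both lower (-1.19 and -0.93). Other pairs differed in direction. SEMA3F was lower (-1.48) where its co-receptor gene NRP2 was higher (2.53), SEMA5A was higher (1.76) where PLXNB3 was lower (-1.70), and the 3 Slit genes were higher where ROBO1 was lower. SEMA4D and SEMA4C were lower while PLXNB1 and PLXNB2, their receptor genes, were not called. SEMA7A was higher (1.43) while its receptor gene PLXNC1 was not called (-1.02). These pairs are a selection, and not every known receptor was set beside each ligand.

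Some members are neighbours in the genome, and neighbours did not always share a direction. In the gene order of the RefSeq table for Sscrofa11.1, used here for order only, SEMA3D, SEMA3A and SEMA3E follow each other with no protein-coding gene between them. SEMA3A and SEMA3E were called higher and SEMA3D was not called. SEMA3F and SEMA3B, which had log2 fold changes of -1.48 and 3.16, are separated by 3 protein-coding genes. Of those 3, GNAT1 was lower (-2.26, adjusted p = 1.23e-04) and SLC38A3 and GNAI2 were not called (0.62 and -0.10). The gene spans of 13 members overlap another annotated gene in the same table, among them SEMA6A, SEMA6D, NRP1, SLIT2, SLIT3, SEMA5A, PLXNA4 and PLXNC1. Whether reads were assigned by strand is not given in the sources used here, so reads of such overlapping genes could be shared or dropped.

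The pigs gave the same direction for most members. Of the 44 tested members 3 had log2 fold changes of opposite sign in the 2 pigs, SEMA3G, NTN5 and PLXNB2, none of them called, beside 14.1% of all tested genes. Within pigs 88R and 95R the tested ligands had medians of 1.47 and 1.05 on the log2 scale, and the receptors 0.41 and 0.16. SLIT2 and SEMA6A had wider changes in pig 88R, and SEMA7A (0.97 and 1.82) and UNC5C (2.46 and 3.41) wider changes in pig 95R. Since each pig gave a single library of either population, such differences between the pigs could not be tested.

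**Figure D4:**
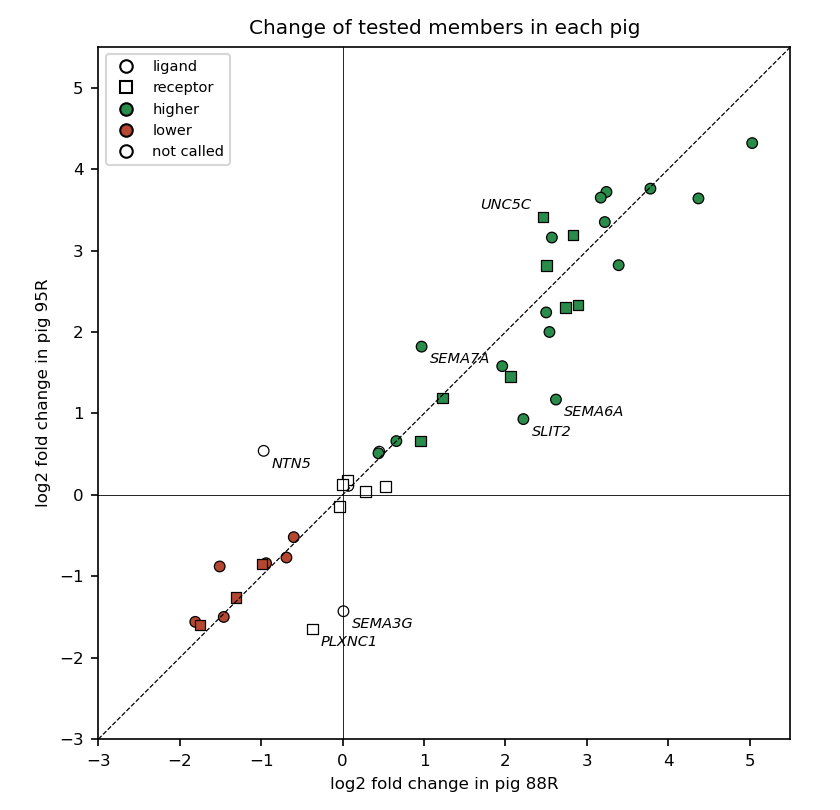
Change (log2 fold) within pig 95R plotted over the change within pig 88R for 43 tested members, all but ROBO4, with circles for ligands and squares for receptors; green is called higher, red called lower and white not called, and the dashed line marks equal change. Genes whose changes differ by more than 0.8 between the pigs are named, among them SLIT2 at 2.22 and 0.93, SEMA7A at 0.97 and 1.82 and NTN5 at -0.97 and 0.54.

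Genes that act with these ligands and receptors were followed in 5 lists of 85 genes, of which 84 were in the table and 80 were tested. Over the lists 34 were higher and 21 lower, or 42.5% and 26.2%, beside 22.7% and 22.0% of all tested genes. The list of netrin, neogenin and UNC5 partners held 14 higher and 5 lower genes among 22, with a median log2 fold change of 1.23 beside 0.02 for all tested genes. The other 4 lists had medians between -0.17 and 0.14. Some partner genes passed the filter through a single population, NTNG2 among them through LGR5-high. These counts and medians therefore describe the lists and are no test of them. With at least 10 counts required in every library, 30 partner genes were higher and 20 lower, and the share of all genes under that filter is not given here. FLRT1, an adhesion protein of the family that binds UNC5 receptors, had 1369 and 1352 counts in LGR5-high and 17 and 43 counts in LGR5-negative (log2 fold change 5.30, standard error 0.325, adjusted p = 1.85e-04), and without the LGR5-negative library of pig 95R its log2 fold change was 6.06. RGMA, which encodes a membrane-bound ligand of neogenin, had a mean of 150 CPM against 27.4 CPM (log2 fold change 2.45, adjusted p = 0.0011).

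Netrin-G proteins, lipid-anchored relatives of netrins that bind no DCC or UNC5 receptor, and 2 of their partners were higher. NTNG1 had 122 and 190 counts against 12 and 12 (log2 fold change 3.49, adjusted p = 0.00112), and NTNG2 had 58 and 17 counts against 0 and 1. The count ratio of NTNG2 was 65.4, and its 95% interval for counting error ran from 11.4 to 2616. LRRC4C, which encodes the partner of netrin-G1, and LRRC4, which encodes that of netrin-G2, had log2 fold changes of 2.57 and 2.98 (adjusted p = 0.00747 and 0.00154). Without the LGR5-negative library of pig 95R the value of LRRC4C was 3.45, and without that of pig 88R the value of LRRC4 was 3.57. All values of NTNG2 without 1 library lay between 4.61 and 8.14 on the log2 scale, around 5.72 with all 4. LRRC4B, a relative of LRRC4 named here after its value was seen, was lower (-1.54, adjusted p = 0.00352).

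In the list of plexin and semaphorin signalling, 7 genes were higher and 6 lower among 20. These were 35.0% and 30.0%, beside 22.7% and 22.0% of all tested genes. RND1, a small GTPase that binds plexins, had 1832 and 2600 counts in LGR5-high and 7127 and 11494 in LGR5-negative (log2 fold change -2.26, standard error 0.264, adjusted p = 0.0015). RRAS, a GTPase that plexins switch off, was lower too (-1.35, adjusted p = 8.85e-04). FARP1, an exchange factor tied to A-type plexins, was higher (2.21, standard error 0.111, adjusted p = 1.10e-04), and DPYSL2, which encodes the collapsin response mediator CRMP2, was higher as well (2.11, adjusted p = 0.002). DPYSL3 (1.61) and MICAL2 (1.12) were also called higher. DPYSL3 was not called without the LGR5-high library of pig 88R (adjusted p = 0.0638), and MICAL2 was not called without either LGR5-high library (adjusted p = 0.0559 and 0.0673).

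The Slit and Robo signalling list had 6 higher and 5 lower of 17 (35.3% and 29.4%, beside 22.7% and 22.0% of all tested genes). Its srGAP genes, whose proteins bind Robo receptors, were split, with SRGAP2 lower (log2 fold change -1.63, standard error 0.148, adjusted p = 6.28e-04) and SRGAP1 higher (1.52, standard error 0.236, adjusted p = 0.00424). SRGAP3 was called higher (1.20, adjusted p = 0.0463), but not without the LGR5-high library of pig 88R (0.52, adjusted p = 0.171) or the LGR5-negative library of pig 95R (0.99, adjusted p = 0.115). PAK1, a kinase of the actin cytoskeleton, was higher (2.46, standard error 0.1, adjusted p = 6.71e-05), and DAG1, which encodes dystroglycan, a matrix receptor that binds Slits, was higher too (1.26, adjusted p = 2.92e-04).

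Among the co-receptors and other ligands, 4 were higher and 3 lower of 14 tested. These were 28.6% and 21.4%, near the 22.7% and 22.0% of all tested genes. ITGA1, an integrin chain bound by SEMA7A, had 111 and 114 counts against 9 and 4 (log2 fold change 3.89, standard error 0.433, adjusted p = 0.00126), and without the LGR5-negative library of pig 88R the value was 4.61. L1CAM, the adhesion protein that joins neuropilin-1 in the receptor of SEMA3A, had 109 and 100 counts against 12 and 11 (2.97, adjusted p = 0.00102). MET, the receptor kinase that associates with B-type plexins, was lower (-1.43, adjusted p = 4.15e-04). KDR, a VEGF receptor of endothelial cells, had 5 and 1 counts against 23 and 34, and its call (-3.39, adjusted p = 0.00874) was lost without the LGR5-high library of pig 95R (-2.69, adjusted p = 0.0526). Without the LGR5-high library of pig 88R the value of KDR was -4.83. FLT1, another VEGF receptor, had 25 and 45 counts against 63 and 106, and its call (-1.45, adjusted p = 0.0363) held in 1 of the 4 fits without a library. Of the 7 proteases that cut semaphorins or their receptors, 3 were higher and 2 lower, or 42.9% and 28.6%. PCSK5, a furin-like convertase, had 344 and 246 counts against 11 and 20 (log2 fold change 4.04, standard error 0.342, adjusted p = 4.97e-04).

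**Figure D5:**
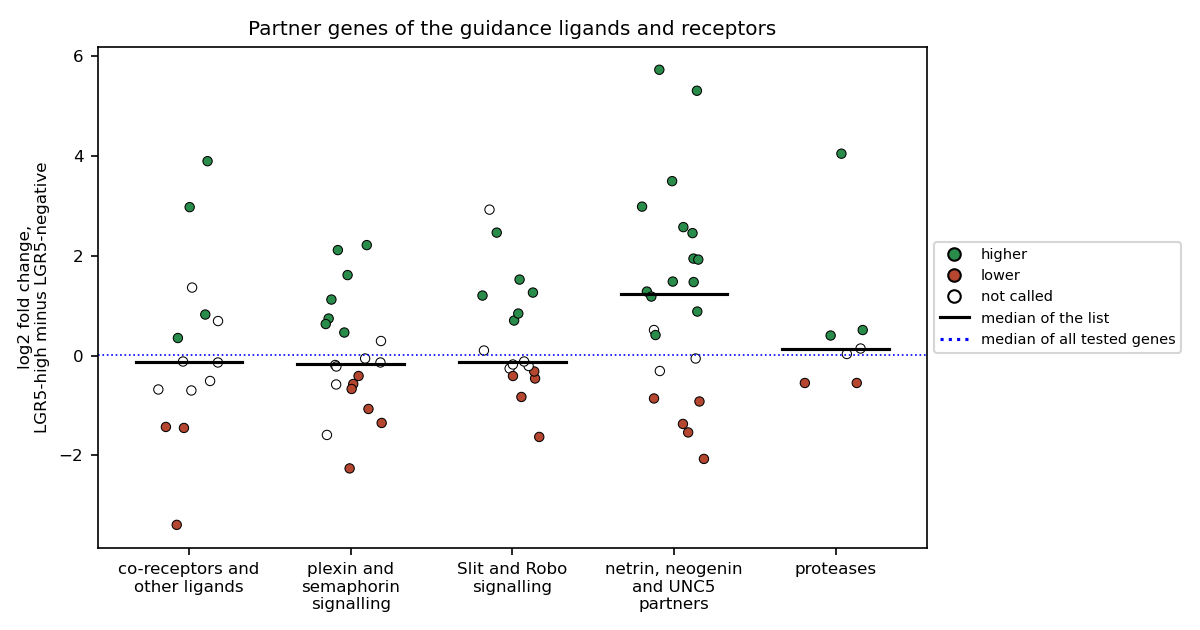
Log2 fold change of LGR5-high minus LGR5-negative for the 80 tested partner genes in 5 lists; each point is a gene, green called higher, red called lower and white not called, black bars are list medians and the blue dotted line is the median of all tested genes (0.02). The list of netrin, neogenin and UNC5 partners has a median of 1.23, with NTNG2 at 5.72 and FLRT1 at 5.30, and the other medians lie between -0.17 and 0.14.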

How the data were processed

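Poly(A)-selected libraries were sequenced in paired ends. What the authors deposited are whole-number read counts, not normalized, with 1 row for each gene symbol. The submitters' processing notes name Trimmomatic 0.36, STAR 2.5.2b and featureCounts of Subread 1.5.2. The genome build, annotation and strand setting are not given in the sources used here. The entry without a name, which held between 0.36% and 0.626% of the counts of a library, was left out.

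Tests used edgeR 4.0.16 under R 4.3.3. The filter was filterByExpr (minimum count 10, minimum total count 15), the scaling TMM and the test 2-sided quasi-likelihood, fitted on population alone, with Benjamini-Hochberg adjustment over all 15980 tested genes. The study's own methods name Student's t-test, used here as an alternative. A call needed an adjusted p-value under 0.05. Standard errors are the log2 fold change divided by the root of the F statistic. Changes within a pig used a prior count of 2. Count ratios have exact 95% intervals for counting error only. Libraries of a population differed by more than counting noise (chi-square per degree of freedom 20.3 and 23.1). The pig pairs the libraries, since same-numbered samples come from the same animal, and across genes the correlation between the deviations of 1 pig's libraries was 0.370. P-values of the quasi-likelihood test rest on the spread between the libraries of 2 pigs, moderated by the fit across genes. The fit on population alone leaves in that spread the level that the libraries of a pig share. TMM was exchanged for DESeq2 size factors, upper quartile or library size, and the other alternatives were other filters on low counts, the replicate block, DESeq2 1.42.0, voom of limma 3.58.1, a minimum change of 2-fold and each library left out. The fits were also run on simulated counts with the same spread setting for every gene and no level shared within a pig. Those settings differ from these data, so that run does not show how the fits perform here.

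The members, the partner and marker lists and the tests were chosen with earlier results of these data known. Counts in every library are given for members called with at least a 2-fold change or with a mean of at least 10 CPM in a population, and up to 6 called partner genes of each list with at least a 2-fold change were named in order of size. KRT14, KRT17, CD1A and HJV, which the lists also name, were not analysed here. Names of all 48 members matched the RefSeq table of Sscrofa11.1, whose gene spans gave only order and overlaps, and no genome sequence was used here. Plots were drawn with matplotlib 3.10.9.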

Additional observations from a re-analysis of the deposited data

How the results depend on the processing

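Of the 34 called members, 30 kept their call under every alternative other than the t-test and the 2-fold minimum, wherever they were tested, and the 4 that did not were SEMA4D, SEMA5B, SEMA6C and SEMA7A. No called member changed its sign. The replicate block, under which the pig pairs the libraries, called 17 ligands higher and 6 lower and 9 receptors higher and 4 lower, against 16, 6, 8 and 4 without it, while the calls over all tested genes went from 22.7% to 28.5% higher and from 22.0% to 27.2% lower. The block added SEMA3D and UNC5B and lost no member. The t-test of the study's methods was run on log2 CPM after 1 was added to each CPM value, which narrows changes of genes at low levels. It found 4 ligands higher and 1 lower, 1 receptor higher and 1 lower, and 4 partner genes higher and 4 lower. Of the 34 called members 27 lost their call under the t-test. The share of all tested genes called under it is not given here, and the cause of the lost calls was not tested. A minimum change of 2-fold left 3 lower ligands and 10 lower partner genes, which follows from its construction. The uncalled values of NTN5, ROBO2 and PLXNB2 changed sign in some settings. NTN5 had a log2 fold change of 0.02 with library size only, and between -0.74 and 0.19 with 1 library left out. ROBO2 had 0.01 with upper quartile scaling and 0.15 with library size only, and between -0.41 and 0.19 with 1 library left out, where PLXNB2 ranged from -0.0049 to 0.12.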
